A study of Mus musculus with 18 samples.

Results

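The miR-204 and miR-211 family of the mouse was followed through adrenal gland and 2 kinds of transgene-driven tumor, using every row of the deposited small RNA table that carried the name mmu-miR-204-5p, mmu-miR-204-3p or mmu-miR-211-5p (named below without the species prefix). These are 3 of the 1966 mature miRNAs listed. They were picked by name, by a rule that did not use their values, but with earlier results of these data known. Small RNA was sequenced from 18 tissue samples in 3 groups. The 3 samples of AG were adrenal glands of mice that lacked the Cre recombinase. The 7 samples of TI were tumors of mice with an IGF2BP1 transgene and Cre. The 8 samples of TIM were tumors of mice with IGF2BP1 (IMP1 in the labels) and MYCN transgenes and Cre. In TI 1 sample was labelled IGF2BP1 +/- and the other 6 IGF2BP1 +/+. Both transgenes stood at the Rosa26 locus behind a stop cassette that Cre removes. By the paper's genotyping TIM mice kept no wildtype Rosa26 locus, so they carried 1 copy of each transgene. TIM thus differed from the IGF2BP1 +/+ mice of TI in IGF2BP1 copies as well as in MYCN. Cre was driven by Dbh, a gene of the sympatho-adrenal lineage, so the transgenes were switched on in cells of that lineage, in adrenal gland and peripheral nerves. By the paper, both the IGF2BP1 and the MYCN transgene lacked their own 3′UTR, and the mice were backcrossed to C57Bl6/N. In the labels 1 TI and 2 TIM tumors were from the adrenal gland and 1 TIM tumor from the spine. The table's columns give the group of a library but not its mouse, so that no value could be tied to a tumor site, and libraries are numbered here in column order.

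MicroRNAs are short RNAs that base-pair with messenger RNAs, mainly through the seed (bases 2 to 8), and lower the output of those messages. The hairpin of miR-204 lies within Trpm3 and that of miR-211 within Trpm1, genes for cation channels of the melastatin type. miR-204 is known for its abundance in retinal pigment epithelium and other parts of the eye, and miR-211 for its expression in melanocytes, which descend from the neural crest as do the cells of the adrenal medulla. miR-204 has also been described as an inhibitor of MYCN mRNA in human neuroblastoma cells. These points are background and were not measured here.

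The mature sequences are shown with the seed in capitals, because the members are grouped by it. They were taken from RefSeq on GRCm38.p6, whose primary assembly is mm10, the genome used by the authors.
miR-204-5p: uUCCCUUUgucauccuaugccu
miR-211-5p: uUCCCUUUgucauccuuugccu
miR-204-3p: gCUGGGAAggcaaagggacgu
miR-204-5p was at chr19:22750610-22750631 and miR-204-3p at chr19:22750649-22750669, the 5′ and the 3′ arm of 1 hairpin on the plus strand. miR-211-5p was at chr7:64205831-64205852, also on the plus strand. In GENCODE vM39 (GRCm39), 34 of 40 Trpm3 transcripts spanned the miR-204 hairpin and 23 of 34 Trpm1 transcripts spanned the miR-211 hairpin, in each case on the same strand and with 0 transcripts placing an exon over it, so both hairpins are intronic.

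miR-204-5p and miR-211-5p share the seed and 21 of 22 bases. The difference is shown with that base in capitals.
miR-204-5p: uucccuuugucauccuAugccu
miR-211-5p: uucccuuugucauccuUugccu
Counted from the 5′ end and with miR-204-5p as the reference, the substitution is A17U. The handling of reads that match both places equally well, or that carry an error at this base, was not given in the sources used here. Of 1679 mature mouse sequences searched, miR-7670-3p also has the seed UCCCUUU, and it drew between 0 and 5 reads in any library. The seed of miR-204-3p, CUGGGAA, recurs in miR-7684-5p, which drew 0 reads in all 18 libraries. Pooled over each group, the reads of seed UCCCUUU were thus mostly those of miR-204-5p (8098 reads in AG, 444 in TI and 9356 in TIM).

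Values are CPM, read counts divided by the TMM-scaled library total, as deposited. Libraries held 21644743 to 23332704 reads on miRNAs in AG, 11802837 to 21268124 in TI and 11641696 to 23435621 in TIM, and 3 reads corresponded to between 0.101 and 0.272 CPM. A single miRNA, miR-148a-3p, took 4.19 to 6.94% of the reads in AG, 2.29 to 61.9% in TI and 6.53 to 44.2% in TIM, and the lowest of these TI values belonged to TI library 5. In the fixed lists of marker miRNAs, 5 of 10 neural and neuroendocrine miRNAs were higher in TI and 6 of 10 in TIM than in AG (limma, adjusted p under 0.05; 26.4% and 25.5% of all tested miRNAs were higher), and 0 were lower. Lower calls took 29.3% of all tested miRNAs in TI and 25.9% in TIM. All 4 kidney, gut and liver markers and both endothelial markers were below AG in either kind of tumor. Their median differences in TI and TIM were 1.44 and 1.52 for the neural list, −2.31 and −2.22 for the kidney, gut and liver list and −3.49 and −3.07 for endothelium on the log2(CPM + 1) scale, against −0.01 and 0.18 for all tested miRNAs. Of stroma and smooth muscle markers 4 of 5 were lower in each kind of tumor, of leukocyte markers 3 of 5 in TI and 4 of 5 in TIM, and of other epithelial markers 0 of 7 in TI and 1 of 7 in TIM, while 0 of 3 markers of sensory cells and 0 of 3 of erythroid cells passed in either. No list marked adrenal cortex.

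miR-204-5p, the main arm, was a mid-abundance miRNA of the adrenal gland and lower in TI. It ranked 172 of 1966 by mean CPM in AG, where the 3 libraries held 72.1, 150 and 154 CPM. In TI the 7 libraries held 0.878, 0.609, 22.4, 3.08, 0.694, 0.363 and 6.87 CPM, from 4 to 255 reads each. Every TI library was below every AG library, and TI libraries 3 and 7 held most of the TI reads. The mean was 125 ± 46.1 CPM in AG (SD, n = 3) and 4.99 ± 8.04 CPM in TI (SD, n = 7), and the medians, 150 and 0.878 CPM, differed 171-fold. On the log2(CPM + 1) scale miR-204-5p fell by 5.14 (SE 1.24, adjusted p = 0.00223, limma), against a median difference of −0.01 over all 726 miRNAs tested. TI library 5, which stood apart in its miR-148a-3p share, was within the other TI libraries for miR-204-5p, and without it the difference was −4.97 (adjusted p = 0.00354).

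miR-204-3p, the minor arm of the same hairpin, was close to the limit of detection in TI. The AG libraries held 23, 29 and 23 reads (1.06, 1.35 and 1.06 CPM). In TI, 6 libraries held 0 reads, each of which allows up to the CPM of 3 reads given above, and library 7 held 1 read (0.0694 CPM). No TI library overlapped AG. The pooled reads, 1 in TI and 75 in AG, gave a ratio of 0.00844 with an exact 95% interval of 0.000211 to 0.0485, which covers counting error only. On the log2(CPM + 1) scale, which compresses differences of such low values, miR-204-3p fell by 1.09 (SE 0.27, adjusted p = 0.00239, limma). On the recovered reads the fitted difference was −6.18 with edgeR (adjusted p = 0.00165) and −6.08 with DESeq2 (adjusted p = 0.00121), which rests on the single TI read.

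miR-211-5p, the arm from Trpm1 with the same seed as miR-204-5p, was as low as the minor arm of miR-204. The AG libraries held 28, 23 and 27 reads (1.29, 1.07 and 1.25 CPM). The TI libraries held 2, 0, 5, 1, 0, 0 and 6 reads, of which the highest came to 0.440 CPM. Again no TI library reached an AG library, and libraries 3 and 7, the TI libraries with most miR-204-5p, also held most miR-211-5p. miR-211-5p fell by 0.95 on the log2(CPM + 1) scale (SE 0.22, adjusted p = 0.00183, limma). Since this scale understates the change at such low values, the difference on the recovered reads was larger, −3.00 with edgeR (adjusted p = 0.0121) and −3.04 with DESeq2 (adjusted p = 0.00797). The pooled reads, 14 in TI and 78 in AG, differed 8.80-fold after scaling (exact 95% interval 4.94 to 16.8, counting error only). The other arm, miR-211-3p, drew 1 read in 1 AG library, 2 reads in 1 TIM library and 0 in the others, and was not tested.

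All 3 members were thus lower in TI than in AG, by the test and without overlap. Of the 726 miRNAs tested, 55.8% were called in either direction, 29.3% were called lower in TI and 24.4% had all TI libraries below all AG libraries, so neither event was rare among miRNAs. miR-204-3p and miR-211-5p passed the filter (1 CPM in 3 libraries) with no TI library at 1 CPM: it was the AG libraries, with 2 TIM libraries for miR-204-3p and 1 for miR-211-5p, that brought them in, and a low value in TI followed in part from that. miR-204-5p was not limited in this way, with 3 TI and 7 TIM libraries at 1 CPM or more. In these bulk tissues a smaller share of the cells that express a miRNA and less of it per cell cannot be told apart.

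**Figure D1:**
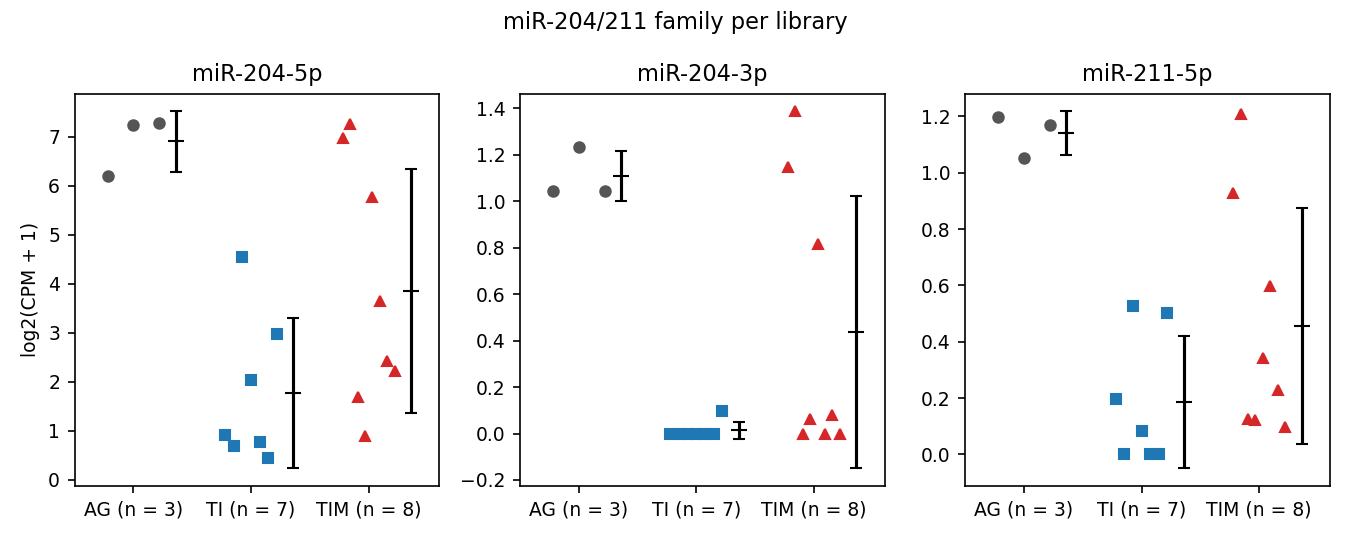
Level of each member in every library on the log2(CPM + 1) scale, by group (AG, TI and TIM, each point 1 library), with the mean and SD at the right of each group; the vertical scales differ between panels. All TI points lie below all AG points, whereas the TIM points run from the TI range up to the AG range.

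In TIM, miR-204-5p was spread over a 179-fold range. The 8 libraries held 125, 152, 2.20, 0.850, 53.5, 11.5, 4.34 and 3.62 CPM, from 19 to 4521 reads each. Libraries 1 and 2 lay within the AG range, library 5 was just below it, and the other 5 lay within the range of TI. The mean was 44.2 ± 61.2 CPM and the median 7.91 CPM (n = 8). Against AG the difference on the log2(CPM + 1) scale was −3.05 (SE 1.22, adjusted p = 0.0438, limma), with 6 of 8 libraries below all AG libraries.

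The minor arm followed the main arm across TIM. miR-204-3p drew 31, 48, 0, 1, 17, 0, 1 and 0 reads in the 8 libraries, or 1.22, 1.62 and 0.759 CPM in libraries 1, 2 and 5 and at most 0.0570 CPM in the others. Library 1 was within the AG range and library 2 above it. Against AG the difference was −0.67 on the log2(CPM + 1) scale (SE 0.26, adjusted p = 0.0406, limma).

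miR-211-5p drew 23, 39, 2, 2, 6, 11, 3 and 1 reads in the TIM libraries, or 0.901, 1.31, 0.0918, 0.0895, 0.268, 0.512, 0.171 and 0.0697 CPM. Library 2 exceeded all AG libraries and the other 7 were below them. Libraries 1 and 2 were again the highest, but library 6 came before library 5. The difference from AG was −0.68 on the log2(CPM + 1) scale (SE 0.22, adjusted p = 0.0157, limma).

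Hence all 3 members passed the threshold as lower in TIM than in AG, where 25.9% of all tested miRNAs did so and 51.4% were called in either direction, but with 1 or 2 TIM libraries at or above the AG level for each. For miR-204-3p and miR-211-5p the 3 AG libraries met the filter by themselves, against 2 and 1 TIM libraries at 1 CPM or more. A low value of these 2 members in TIM therefore followed in part from the filter. The limma calls were close to the threshold: neither edgeR (adjusted p = 0.271, 0.258 and 0.145 for miR-204-5p, miR-204-3p and miR-211-5p) nor DESeq2 (0.245, 0.415 and 0.162) called any of them on the recovered reads. In this comparison edgeR called 352 and DESeq2 423 of the 726 miRNAs tested. Leaving out any 1 AG library ended the limma call of miR-204-5p and of miR-204-3p, as did leaving out TIM library 3, 4, 6, 7 or 8 (adjusted p up to 0.124 in both).

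Between the tumor groups no member passed the threshold. miR-204-5p was higher in TIM than in TI by 2.09 on the log2(CPM + 1) scale (SE 0.93, 95% interval 0.14 to 4.04, adjusted p = 0.185, limma). For miR-204-3p the difference was 0.42 (95% interval 0.00 to 0.84, adjusted p = 0.217) and for miR-211-5p 0.27 (−0.08 to 0.62, adjusted p = 0.353). limma called 0 of the 3, where 3.44% of all tested miRNAs were called higher in TIM and 5.23% in either direction. At an unadjusted p under 0.05 it passed 2 of 3 (13.2% of all tested). With edgeR 0 of the 3 were called, and 3 of all 726 miRNAs tested. DESeq2 called 2 of the 3, miR-204-5p (2.96, adjusted p = 0.0182) and miR-204-3p (4.59, adjusted p = 0.0135). It called 123 of the 726 miRNAs, 45.5% of these higher in TIM, so the number of members called went with the number each tool called. Without the TMM factor the median of all tested miRNAs moved by 0.43 in this comparison, and relative to that median miR-204-3p and miR-211-5p changed sign (−0.02 and −0.09), while miR-204-5p did not. The intervals leave room for a sizeable difference as well as for almost none.

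**Figure D2:**
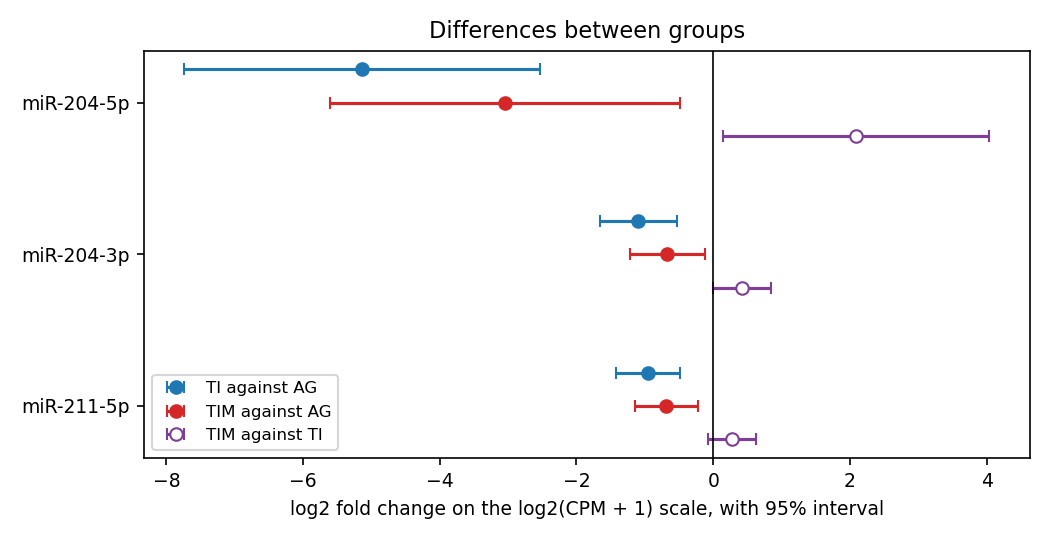
Differences between groups for the 3 members on the log2(CPM + 1) scale (horizontal axis), with 95% intervals from limma; filled points had an adjusted p under 0.05 and open points did not. All 6 differences from AG lie below 0, and the 3 between TIM and TI lie above 0 without passing the threshold.

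To ask whether the arms and paralogs moved by the same amount, reads were compared within each library, which does not depend on the scaling. In all 6 tests were made, by two-sided exact permutation of libraries on log2 ratios with 0.5 reads added to each count. The ratio of miR-204-5p to miR-204-3p reads averaged 6.66 ± 0.55 (log2, SD, n = 3) in AG, 5.53 ± 1.91 (n = 7) in TI and 6.37 ± 1.45 (n = 8) in TIM. The arms did not differ in their ratio beyond the spread of the libraries (TI against AG −1.13, exact p = 0.35; TIM against AG −0.29, exact p = 0.655; TIM against TI 0.84, exact p = 0.352). In TI, however, 6 of 7 ratios rest on 0 reads of the minor arm and are set by the reads added, as are 3 of 8 in TIM. With 0 reads of the minor arm, 4 TI libraries and 1 TIM library would still be below the lowest AG ratio. These tests therefore cannot show that the ratio of the arms was unchanged.

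The ratio of miR-204-5p to miR-211-5p reads averaged 6.60 ± 0.72 (log2) in AG, 4.17 ± 1.13 in TI and 5.34 ± 1.63 in TIM. TI differed from AG by −2.42 (exact permutation p = 0.0167, the smallest that 120 arrangements can give, adjusted 0.1 over the 6 tests). This p cannot be read as a change of the ratio: TI libraries 1, 2, 5 and 6 had so few miR-204-5p reads that even 0 reads of miR-211-5p would have left them at 4.64, 4.39, 4.75 and 3.17, below the lowest AG ratio of 5.77. TIM differed from AG by −1.26 (exact permutation p = 0.194, adjusted 0.388) and from TI by 1.16 (exact permutation p = 0.138, adjusted 0.388). The same limit applied to 1 TIM library (library 4).

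The 6 libraries with 1000 or more miR-204-5p reads, 3 of AG and 3 of TIM, allow a closer view. In them miR-211-5p made up 0.498 to 1.76% of the reads of the pair miR-204-5p and miR-211-5p, and miR-204-3p 0.687 to 1.45% of the reads of the miR-204 arms. miR-211-5p thus came to about 1 read for every 100 reads of a miRNA from which it differs by the 1 base shown above. Whether some of its reads arose from miR-204-5p was not tested.

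**Figure D3:**
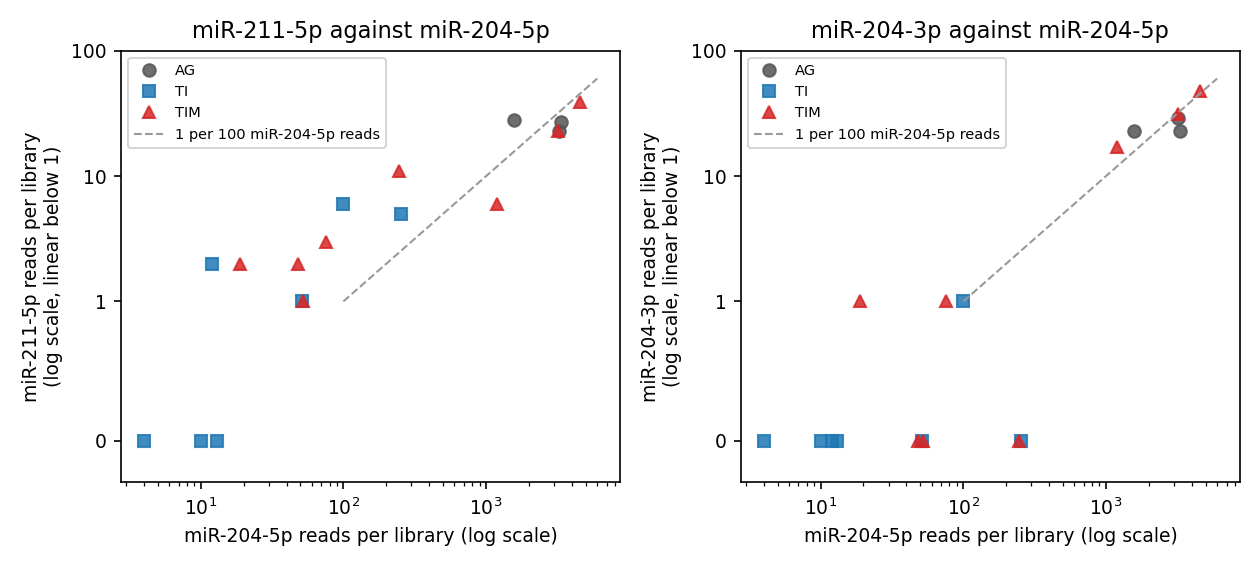
Reads of miR-211-5p (left) and of miR-204-3p (right) against reads of miR-204-5p in each of the 18 libraries, on log axes that are linear below 1 read on the vertical; the dashed line marks 1 read per 100 miR-204-5p reads. Libraries of AG and the 3 TIM libraries with most miR-204-5p lie near the line in both panels, and all TI libraries lie at 0 or 1 read of miR-204-3p.

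The miRNAs most like the members were then listed by Pearson correlation of log2(CPM + 1), as a description over libraries that also differ in depth and in their share of miR-148a-3p. Over all 18 libraries the closest to miR-204-5p were miR-211-5p (r = 0.93), miR-204-3p (0.91), miR-1981-5p (0.90), miR-100-5p (0.90) and miR-6516-5p (0.89), against a median r of 0.05 over the 725 other miRNAs. Those for miR-204-3p were miR-6516-5p (0.93), miR-664-5p (0.93), miR-1843a-5p (0.92), miR-204-5p and miR-3084-5p (0.91 each). Those for miR-211-5p were miR-204-5p (0.93), miR-6516-5p (0.89), miR-204-3p (0.88), miR-100-5p (0.87) and miR-365-1-5p (0.86).

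Within the 15 tumor libraries, after subtracting the mean of TI and of TIM, the difference from adrenal gland no longer enters. The closest to miR-204-5p were then miR-211-5p (0.88), miR-338-3p (0.87), miR-6896-5p (0.85), miR-24-2-5p (0.84) and miR-338-5p (0.84). Those for miR-204-3p were miR-338-3p (0.94), miR-338-5p (0.94), miR-6516-5p (0.91), miR-3084-5p (0.88) and miR-664-5p (0.86). The median r over the 724 miRNAs compared was 0.05 for miR-204-5p and 0.04 for miR-204-3p. The correlations of miR-204-3p rest mainly on TIM libraries 1, 2 and 5, with 31, 48 and 17 reads of it. Every other tumor library held at most 1 read. miR-211-5p had miR-204-5p (0.88), miR-20b-5p (0.87), miR-6958-3p (0.77), miR-204-3p (0.77) and miR-5129-3p (0.77). Both arms of miR-338, a miRNA known from the maturation of oligodendrocytes, were thus among the closest 5 of both arms of miR-204, but not of miR-211-5p.

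The 3 TIM libraries with most miR-204-5p and miR-204-3p were also high in miR-338 and miR-100-5p. They were also the deepest of TIM, with 21361882, 22654966 and 23435621 reads on miRNAs in libraries 1, 2 and 5, and library 7 was close at 21102520. The part of depth in these levels was not tested. In TIM libraries 1, 2 and 5, miR-338-3p held 31.7, 43.8 and 27.5 CPM, and miR-338-5p 114, 85.3 and 73.2 CPM. In the other TIM libraries miR-338-3p was at most 5.25 CPM and miR-338-5p at most 21.5 CPM. The AG libraries reached 16.9 and 33.7 CPM, so that for miR-338 these 3 tumor libraries were above adrenal gland, whereas for miR-204-5p they were at 83.5, 101 and 35.7% of the AG median. Neither arm of miR-338 passed the threshold in a comparison of whole groups (limma adjusted p from 0.228 to 0.869 over the 3 comparisons). miR-100-5p, the miRNA of this list with the highest level, held 8962, 5402 and 3845 CPM in TIM libraries 1, 2 and 5 and at most 2038 CPM in the other TIM libraries. In TI it was between 388 and 1128 CPM.

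Marker miRNAs of other cell types moved partly with the members. The summed endothelial list (miR-126a-3p and miR-126a-5p) was at 7095, 7701 and 8943 CPM in TIM libraries 1, 2 and 5, the highest of all TIM libraries, but still at most 22.6% of the AG median. The summed kidney, gut and liver list (4 of 4 detected) was at 22.1, 20.7 and 26.9%, also the highest in TIM. TI library 5 had similar values for these lists, 17.0 and 29.7%, with miR-204-5p at 0.463% of the AG median. Over all libraries the endothelial sum ran from 38529 to 46092 CPM in AG, 1704 to 6736 in TI and 2428 to 8943 in TIM, and the kidney, gut and liver sum from 3598 to 7068, 294 to 1188 and 382 to 1077 CPM. The summed list of sensory cells of eye and ear (miR-96-5p, miR-182-5p and miR-183-5p) was at 423, 487 and 636% of the AG median in TIM libraries 1, 2 and 5, at 3752% in library 7 and at 3.78 to 32.3% in the other 4. It ran from 313 to 979 CPM in AG, 34.4 to 823 in TI and 15.3 to 15220 in TIM. In the other 5 lists the sums of TIM libraries 1, 2 and 5 overlapped those of the other TIM libraries. No defining marker of these lists was at 0. The part of these cell types in the levels of miR-204-5p was not tested.

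**Figure D4:**
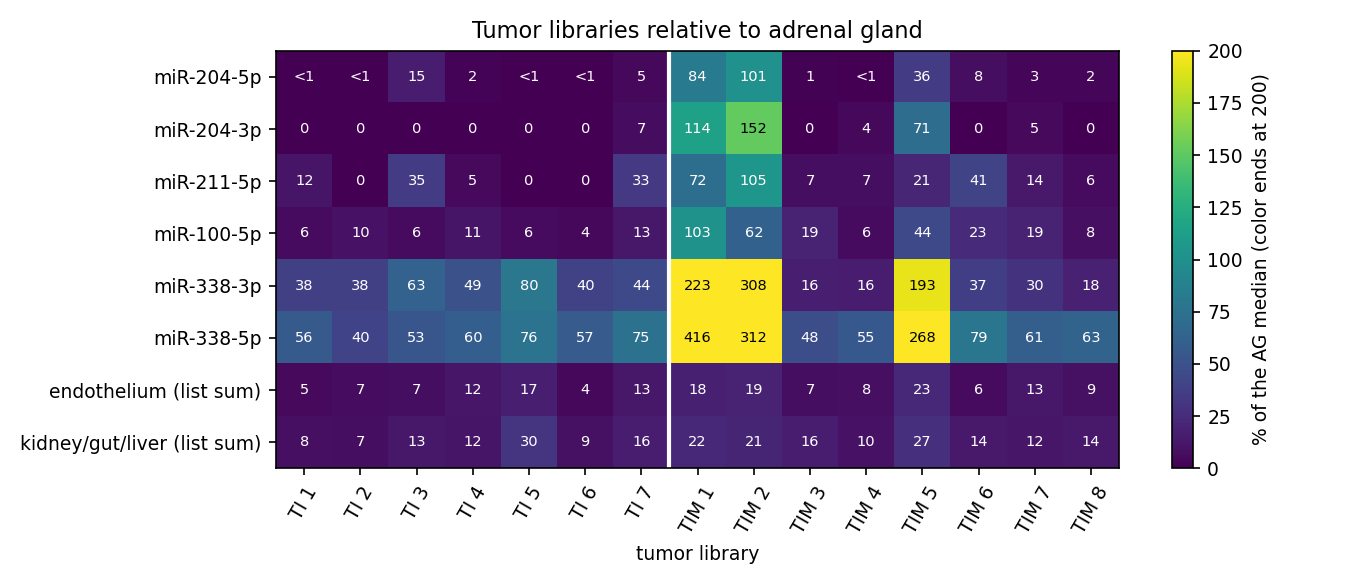
Level of the 3 members, of miR-100-5p and both arms of miR-338, and the summed endothelial and kidney, gut and liver lists in each of the 15 tumor libraries (columns), as a percent of the AG median (numbers and color, the color ending at 200). TIM libraries 1, 2 and 5 are the highest in the rows of both miR-204 arms, miR-100-5p and both miR-338 arms, but not library 5 in that of miR-211-5p, and their sums of the lists shown are at most 26.9% of the AG median.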

How the data were processed

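Small RNA was sequenced from 18 mouse tissues. Per the submitters' notes and methods, the authors trimmed reads with cutadapt 2.8, aligned them with Bowtie2 2.3.5.1 to mm10, counted with featureCounts 2.0.0 and normalised by TMM in edgeR 3.40. What they deposited is a normalised signal, TMM-scaled CPM. Since every value came out as a whole multiple of 1 read (100% within 0.01 reads), reads were recovered from the steps. A column of the table names a group but no mouse. Columns with the authors' own fold changes and p-values were not used.

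Here the 726 of 1966 miRNAs that reached 1 CPM in 3 or more libraries were tested with limma 3.58.1 (trend) on log2(CPM + 1), all 18 libraries in one model, Benjamini-Hochberg adjustment, threshold 0.05. The fit was tested on simulated data. No pair of libraries within a group was identical. The sample titles are numbered but were not tied to mice, so it was not shown that each library came from a separate mouse. By the paper, the mice with both transgenes bore more tumors than there were mice, so TIM libraries may share a mouse. The tests treated each library as independent. The p-values measure only the spread between these libraries. Ratios used the exact permutation test over libraries, smaller tail doubled. Alternatives were another pseudocount, scaling or filter, 2 groups in the model, edgeR 4.0.16 and DESeq2 1.42.0 on recovered reads, and leaving out each library. Intervals on reads cover counting error only.

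The named miRNAs are the 3 members, miR-211-3p, the 39 miRNAs of 8 marker lists (counts and ranges, at most 4 of each by highest mean CPM) and the 5 closest to each member by correlation; miR-7670-3p and miR-7684-5p, which share a seed, and miR-148a-3p, which dominates libraries, were added later. The members and lists were chosen with earlier results of these data known. Sequences from RefSeq matched 1675 of 1966 names.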

Additional observations from a re-analysis of the deposited data

Results flagged for a closer look

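In TI, the library with the most miR-204-5p, library 3 at 22.4 CPM, stood apart from the other 6 in CPM: its gap to the next library was 0.706 of the whole range of the group. For miR-204-3p, TI library 7 stood apart on the CPM and on the log2(CPM + 1) scale with a gap of 1, the whole range, but this rests on 1 read against 0 in the other 6 libraries. Of 32 group ends compared for the members and their ratios, 3 stood apart in this way, and those of miR-204-3p are the same single read on both scales. The rate of about 1 in 20 by chance assumes normally distributed values. It gives no expected count for skewed CPM or for libraries at 0 reads.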

How the results depend on the processing

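The differences of the 3 members between TI and AG kept their direction and their call under every alternative run, but their size depended on the pseudocount: with 0.1 and 5 CPM miR-204-3p differed by −3.54 and −0.30, and miR-211-5p by −2.73 and −0.27. Against AG, TIM lost its call in these settings. For miR-204-5p the log2 values were −3.31 with a pseudocount of 0.1 CPM, −2.75 without the TMM factor, −2.55 with miR-148a-3p out of the totals, −3.05 without the filter, with only 2 groups in the model and by exact permutation of the miRNA alone, −1.67 with edgeR and −1.66 with DESeq2 (adjusted p 0.0605 to 0.271; permutation p = 0.0727). For miR-204-3p they were −0.18 with a pseudocount of 5 CPM, −0.59 without TMM, −0.57 without miR-148a-3p, −0.67 without the filter, with 2 groups and by permutation, −1.40 with edgeR and −1.49 with DESeq2. For miR-211-5p they were −0.54 without TMM, −0.51 without miR-148a-3p, −1.53 with edgeR and −1.56 with DESeq2. TIM against TI gained a call with DESeq2 for miR-204-5p (2.96) and miR-204-3p (4.59), where DESeq2 called 123 of the 726 miRNAs tested. The cause was not tested.

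The count of all miRNAs called between TIM and TI, 38 (65.8% higher in TIM), became 21 with a pseudocount of 5 CPM, 155 without TMM (89.0% higher), 21 without the filter, 17 with at least 10 CPM, 23 with 2 groups, 3 with edgeR (33.3% higher) and 123 with DESeq2 (45.5% higher). The median of all tested miRNAs shifted without TMM by −0.14, 0.23 and 0.43 in TI against AG, TIM against AG and TIM against TI, and without miR-148a-3p by 0.35, 0.39 and 0.07; relative to it each member stayed lower in both tumor groups than in AG. The ratio of miR-204-5p to miR-204-3p in TI against AG was −3.66 with 5 reads added and −4.04 as a difference of log2(CPM + 1), both at the smallest exact permutation p, and miR-204-5p to miR-211-5p in TIM against TI passed unadjusted with 5 reads added (2.06, exact permutation p = 0.0438). These settings lower the ratio wherever miR-204-5p is low, so they say little about the ratio itself.

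Leaving out 1 library at a time gave, in TI against AG, −5.60 to −4.92 for miR-204-5p, −1.13 to −1.03 for miR-204-3p and −1.01 to −0.92 for miR-211-5p, with 310 to 432 miRNAs called. TIM against AG ran from −3.53 to −2.62, −0.81 to −0.61 and −0.79 to −0.63, with 242 (without AG library 1) to 381 called, and miR-211-5p lost its call without AG library 1 or 3. TIM against TI ran from 1.60 to 2.55, 0.29 to 0.49 and 0.16 to 0.33, with 24 (without TI library 1, 2 or 6) to 72 (without TI library 7) called, 63 without TI library 4 and 66 without TIM library 4. The ratio to miR-204-3p ran from −1.71 to −0.73 in TI against AG (passing without TI library 3), −0.66 to 0.09 in TIM against AG (0.0939, a change of sign, without TIM library 4) and 0.45 to 1.42 in TIM against TI. The ratio to miR-211-5p ran from −2.83 to −2.11 (missing the threshold without any 1 AG library, where the smallest possible p is 0.0556), −1.67 to −0.92 and 0.85 to 1.503.

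The groups were mice of different genotypes and the labels give no pairing between them, so no paired analysis was made. With at least 10 CPM required, miR-204-3p and miR-211-5p were not tested. Depth limits both: a library without reads does not show that the miRNA is absent, as up to the CPM of 3 reads remains possible. Differences on the log2(CPM + 1) scale understate the change of such miRNAs.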

Other observations

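Several miRNAs whose pattern was closest to miR-204-5p were also lower in tumors than in adrenal gland. miR-100-5p, which is encoded in a cluster with let-7a and miR-125b, differed from AG by −3.75 in TI (SE 0.66, limma adjusted p = 0.000127) and by −2.05 in TIM (SE 0.65, adjusted p = 0.0140) on the log2(CPM + 1) scale, and TIM was higher than TI by 1.70 with an adjusted p of 0.0509. miR-24-2-5p, the minor arm of a hairpin of the miR-23a cluster, differed from AG by −3.34 in TI (adjusted p = 0.000120) and −2.84 in TIM (adjusted p = 0.000479). miR-6896-5p, among the closest to miR-204-5p within the tumors, went the other way, higher than AG by 1.06 in TIM (SE 0.37, adjusted p = 0.0251) and by 0.58 in TI without passing the threshold (adjusted p = 0.200), at a mean of 0.341 CPM in AG. As these miRNAs were picked for their likeness over the same libraries, their direction is no independent evidence about the members.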
